A study of Mus musculus with 8 samples.

Results

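The set described here holds 10 serpin genes of mouse chromosome 12, chosen by symbol: Serpina1a, Serpina1b, Serpina1c, Serpina1d, Serpina1e, Serpina3k, Serpina3m, Serpina3n, Serpina6 and Serpina12. They are 10 of the 14317 mouse genes in the table, and all 10 passed the filter on low values, a mean of at least 10. Liver RNA was sequenced from 4 Con-Veh and 4 Con-DHT female mice, with 1 library per mouse. All 8 mice were on a western diet (WD) of 40% fat, 20% fructose and 2% cholesterol for 8.5 weeks and were fasted overnight before tissue was taken. The labels give the genotype of every mouse as WT, and the study's methods describe its controls as females with a floxed allele and no Cre. Con-DHT mice carried a 10 mm silastic pellet of dihydrotestosterone (DHT), a potent androgen that aromatase cannot turn into estrogen, from 7 weeks of age. Con-Veh mice carried an empty pellet, and pellets were replaced every 4 weeks. Treatment with DHT or vehicle lasted 8.5 weeks, as did the diet. No strain name is given in the sources used here.

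Serpins are a family of secreted and intracellular proteins, most of which inhibit serine proteases. A protease cuts an exposed peptide, the reactive centre loop, and the serpin then folds around the cut and traps the enzyme, so the letters of the loop decide which protease is caught. Humans have a single gene for alpha-1-antitrypsin, the main inhibitor of neutrophil elastase in plasma, while mice have several copies, named Serpina1a to Serpina1e here, all made mainly by hepatocytes. The Serpina3 genes are the mouse counterparts of human alpha-1-antichymotrypsin and were also multiplied in the mouse. Serpina6 encodes corticosteroid-binding globulin, which carries glucocorticoids in blood, and Serpina12 encodes vaspin, an adipokine.

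The Serpina1 copies differ more where the loop is coded than over the rest of their coding sequence. Their coding sequences of 1239 bases were between 96.29% and 98.47% identical over 10 pairs, with Serpina1a and Serpina1c the closest pair (19 bases differ). Of the 66 bases coding for the loop region, 15 were not the same in all 5 copies (22.73%), against 71 of the other 1173 bases (6.05%). The most variable window of that length held 18 such bases and overlapped the loop region, from coding base 1095 on. The stretches (GENCODE M21, GRCm38, coding bases 1087 to 1152, each within 1 exon on the minus strand) are shown because they code for the part of each copy that meets the protease. Capitals mark the bases that are not alike in all 5 copies.
Serpina1a, chr12:103853765-103853830: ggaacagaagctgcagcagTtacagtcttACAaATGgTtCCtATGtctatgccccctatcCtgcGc
Serpina1b, chr12:103728332-103728397: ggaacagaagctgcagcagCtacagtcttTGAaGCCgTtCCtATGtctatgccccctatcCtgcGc
Serpina1c, chr12:103895102-103895167: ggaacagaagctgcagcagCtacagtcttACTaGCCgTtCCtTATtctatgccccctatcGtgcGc
Serpina1d, chr12:103763770-103763835: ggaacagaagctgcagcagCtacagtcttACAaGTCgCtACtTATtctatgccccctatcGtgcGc
Serpina1e, chr12:103947108-103947173: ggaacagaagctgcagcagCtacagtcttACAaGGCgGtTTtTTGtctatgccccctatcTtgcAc

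The matching stretches of the 3 Serpina3 members, on the plus strand, begin alike and then part. Capitals run from the first base at which the 3 are not the same.
Serpina3k, chr12:104345269-104345337: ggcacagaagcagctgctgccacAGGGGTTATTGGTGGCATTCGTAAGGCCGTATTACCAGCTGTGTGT
Serpina3m, chr12:104393769-104393843: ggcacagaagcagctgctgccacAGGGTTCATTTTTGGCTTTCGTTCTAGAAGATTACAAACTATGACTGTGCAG
Serpina3n, chr12:104413448-104413522: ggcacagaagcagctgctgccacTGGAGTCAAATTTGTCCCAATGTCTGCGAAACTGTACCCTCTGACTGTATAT
Over the aligned coding sequence, Serpina3k and Serpina3m were 90.95% identical, Serpina3m and Serpina3n 85.17%, and Serpina3k and Serpina3n 82.7%.

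Such likeness limits how well reads can be assigned, since only uniquely mapped reads were counted. Of all windows of 150 bases in the coding sequence, the length of a read, 90.1% were found in no other gene's transcript for Serpina1e, 75.8% for Serpina1b, 73.4% for Serpina1d and 46.9% each for Serpina1a and Serpina1c. Levels of Serpina1a and Serpina1c may therefore be understated relative to the other copies, and a shift between them is less certain than a shift of Serpina1e. For the other 5 members the share was at least 99.5%. The annotated span of Serpina1b overlaps that of Serpina1d, and the span of Serpina3m overlaps that of Serpina3k, so reads in shared exons could not be given to either gene. Strand use in the counting is not given in the sources used here.

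Upstream of the transcription start, the 5 Serpina1 copies shared 1 long identical stretch. RefSeq promoter entries (GRCm38.p6, 250 bases before to 50 bases after the start) were matched for 7 of the 10 members: the 5 Serpina1 copies, Serpina3n and Serpina12. All 5 Serpina1 promoters shared an identical run of 55 bases, which ended 5, 10, 11 and 0 bases before the start in Serpina1a, Serpina1b, Serpina1c and Serpina1d and 62 bases before the annotated start in Serpina1e. The run and the 20 bases before it are given for the copy that rose most and for a copy that did not pass the test. Capitals mark the bases that are not alike in all 5 copies, all of them in the part before the shared run.
Serpina1e, chr12:103956960-103957034, minus strand: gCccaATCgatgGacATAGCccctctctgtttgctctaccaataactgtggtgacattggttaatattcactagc
Serpina1a, chr12:103863625-103863699, minus strand: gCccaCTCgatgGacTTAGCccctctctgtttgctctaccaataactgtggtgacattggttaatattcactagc
The letters TTCNNNGAA, the core to which STAT5 and related factors bind, were searched on both strands and were present in 8.3% of 32851 promoters and in 0 of the 7 matched. Their absence says only that these letters are not in this window.

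The values are normalized read counts: the reads of a gene divided by 1 size factor per library. Libraries held between 14240001 and 17815944 reads on mouse genes in Con-Veh and between 13123962 and 15205299 in Con-DHT. The lowest count of any member in any library was 45 reads (Serpina12), and the lowest for Serpina1e was 208. Differences were tested with limma on log2(value + 1) over 14312 genes, with Benjamini-Hochberg adjustment, and a gene was called at an adjusted p of at most 0.05. By this rule 7.21% of all genes were called, 4.6% as higher and 2.61% as lower in Con-DHT, and the split moved from 658 higher and 374 lower to 561 and 75 with spike-in scaling and to 1105 and 204 with an equal total taken without the Mup and Serpina1 genes. For 15.1% of genes (8.49% higher, 6.62% lower) no value of one group lay within the range of the other. Differences of log2 values (Con-DHT minus Con-Veh) are given as log2 fold changes, with the SE and the 95% interval of the fit.

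Con-Veh replicates 1 and 2 stood apart from the other 6 libraries in genes of the acute phase response, the set of plasma proteins that hepatocytes make in inflammation. Of the 30 acute phase genes listed, 24 were higher in both of these libraries than in each of the other 6 (80.0%), against 7.02% of all tested genes. Relative to the Con-Veh mean, the median of the list on the log2 scale was 0.58 and 0.53 in Con-Veh replicates 1 and 2, against -0.52 and -0.59 in replicates 3 and 4. In Con-DHT it was -0.90, -0.79, -0.34 and -1.05 in replicates 1 to 4. Values of the members without these 2 libraries are given where they bear on a result. With 2 Con-Veh libraries left in, limma called 509 of all genes tested, against 1032 with all 8 libraries. It called 0 of the 10 members, with limma adjusted p between 0.0648 and 0.931. In these 6 libraries the groups did not overlap in Serpina1c, Serpina1e, Serpina3k and Serpina3m.

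Of the 10 members, 3 were called, 2 as higher in Con-DHT (Serpina1e and Serpina1c) and 1 as lower (Serpina3m), where 7.21% of all genes were called. edgeR on the recovered reads called 4 members, against 7.15% of all genes: 3 higher, against 4.7%, and 1 lower, against 2.46%. DESeq2 called 5, against 11.0%: 3 higher, against 6.45%, and 2 lower, against 4.52%. The groups did not overlap in 3 members, those that limma called, where they did not overlap in 15.1% of all genes. The members together took 1.31% ± 0.06 (SD, n = 4) of the reads on mouse genes in Con-Veh and 1.76% ± 0.31 (SD, n = 4) in Con-DHT. A whole liver was sequenced, and fewer cells of a type and less RNA per cell cannot be told apart in these values.

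**Figure D1:**
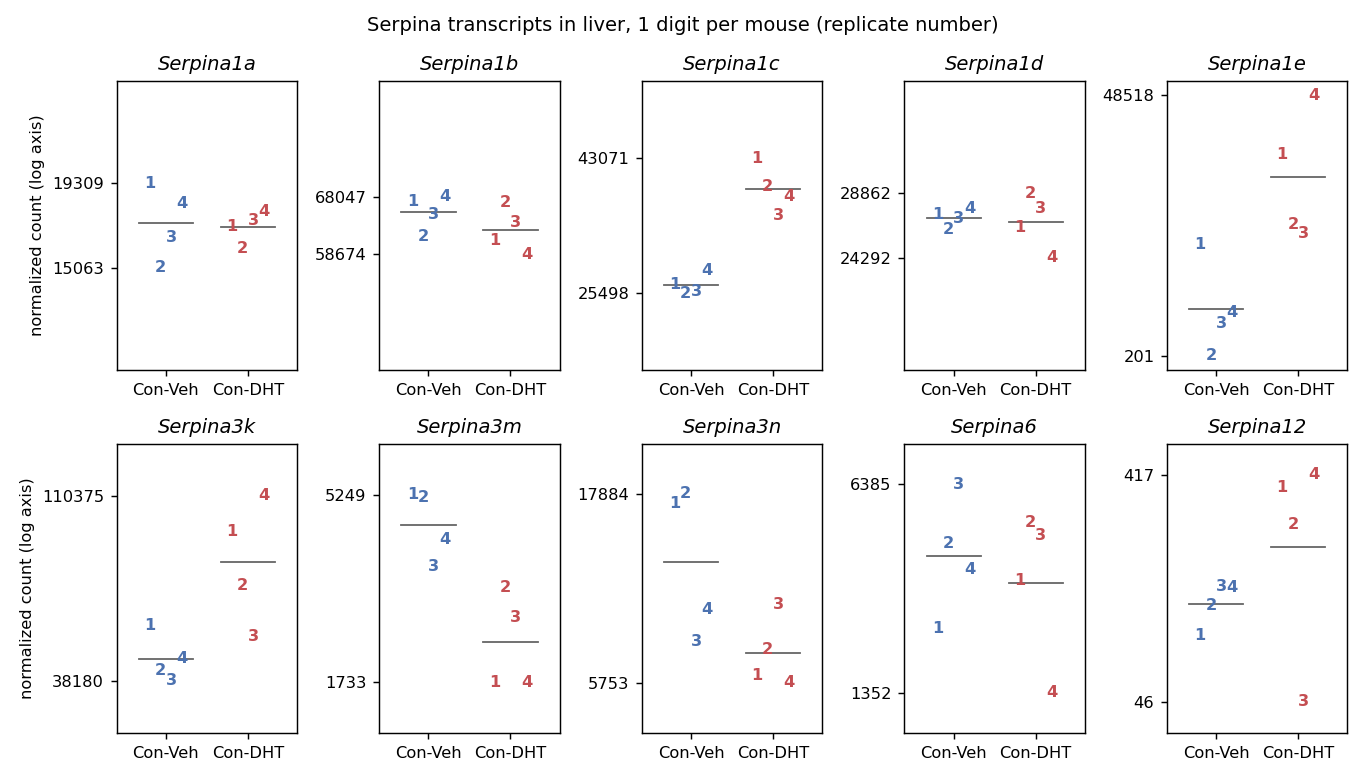
Normalized counts of the 10 genes (log axis with its own range in each panel, ticks at the lowest and highest value), with each digit placing 1 mouse by its replicate number, Con-Veh in blue and Con-DHT in red, and a line at the geometric mean. Groups do not overlap for Serpina1c, Serpina1e and Serpina3m, and Serpina1e runs from 200.7 to 48518.

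Serpina1e was the member with the largest difference. In Con-Veh its values were 2096, 200.7, 396 and 500 in replicates 1 to 4. In Con-DHT they were 13991, 3174, 2656 and 48518. Every Con-DHT value lay above every Con-Veh value, with the highest Con-Veh library (replicate 1) close to the lowest Con-DHT library (replicate 3). The mean rose 21.4-fold, from 798 ± 874 (SD, n = 4) to 17085 ± 21597 (SD, n = 4), with a log2 fold change of 4.01 (SE 0.93, interval 1.94 to 6.09, limma adjusted p = 0.0296). Within a group the highest and lowest mouse were 10.4-fold apart in Con-Veh and 18.3-fold apart in Con-DHT, the widest ranges among the 5 copies. With Con-Veh replicates 1 and 2 left out the log2 fold change was 4.29 (limma adjusted p = 0.0648). The call was also lost when Con-DHT replicate 1 or Con-Veh replicate 2, 3 or 4 was left out singly (limma adjusted p between 0.0681 and 0.0795), with log2 fold changes between 3.19 and 4.67 over all 8 such fits.

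Serpina1c was the other copy that rose, by a smaller and more even step. Its Con-Veh values were 26311, 25498, 25660 and 27801, and its Con-DHT values were 43071, 38636, 34417 and 37079. No value of one group reached the range of the other. The mean was 26317 ± 1050 (SD, n = 4) in Con-Veh and 38301 ± 3626 (SD, n = 4) in Con-DHT, 1.46-fold higher, and the log2 fold change was 0.54 (SE 0.11, interval 0.29 to 0.78, limma adjusted p = 0.0164). The mouse with by far the most Serpina1e, Con-DHT replicate 4, ranked below replicates 1 and 2 for Serpina1c. Without Con-Veh replicates 1 and 2 the log2 fold change was 0.52, nearly the same size, while limma's adjusted p was 0.101. Without Con-Veh replicate 2 alone limma's adjusted p was 0.0512.

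The other 3 copies did not pass the test. Serpina1b, the most abundant copy in Con-Veh, had values of 67230, 61460, 65015 and 68047 in Con-Veh and 60842, 67135, 63627 and 58674 in Con-DHT. Its log2 fold change was -0.07 (interval -0.35 to 0.22, limma adjusted p = 0.808). Serpina1d stood between 26216 and 27740 in Con-Veh and between 24292 and 28862 in Con-DHT, at a log2 fold change of -0.02 (interval -0.24 to 0.20). Serpina1a stood between 15063 and 19309 in Con-Veh and between 15935 and 17774 in Con-DHT, at a log2 fold change of -0.02 (interval -0.24 to 0.21). In these 3 genes the groups overlapped, and the sign of the small differences turned when the libraries were scaled by the spike-ins or to an equal total that left out the Mup and Serpina1 genes.

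Summed over the 5 copies, the alpha-1-antitrypsin transcripts were 1.18-fold higher in Con-DHT. The sum was 142208, 128439, 134550 and 142267 in Con-Veh and 161275, 153741, 145756 and 186337 in Con-DHT, and the groups did not overlap. Without Serpina1e, the sum of Serpina1a to Serpina1d was 136068 ± 6159 (SD, n = 4) in Con-Veh and 144693 ± 5508 (SD, n = 4) in Con-DHT, 1.06-fold higher, and the groups overlapped. The makeup of the sum shifted with it. Serpina1e gave 1.47%, 0.156%, 0.295% and 0.351% of the summed values in Con-Veh and 8.68%, 2.06%, 1.82% and 26.04% in Con-DHT. Per kilobase of exon, Serpina1e in Con-DHT replicate 4, at 30005, was above the other 4 copies (Serpina1c at 27244 and Serpina1b at 24296), and in the other 3 Con-DHT livers, at 1642 to 8653, it was below all of them. Its lead in replicate 4 is uncertain, since 90.1% of its windows were unique, against 46.9% for Serpina1c and 75.8% for Serpina1b. Serpina1c gave 19.2% ± 0.59 (SD, n = 4) in Con-Veh and 23.8% ± 2.91 (SD, n = 4) in Con-DHT, whereas the share of Serpina1b was 47.8% ± 0.43 and 39.1% ± 5.81 (SD, n = 4 each). Since the genes were chosen with earlier results known, these sums and shares are given without a test.

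**Figure D2:**
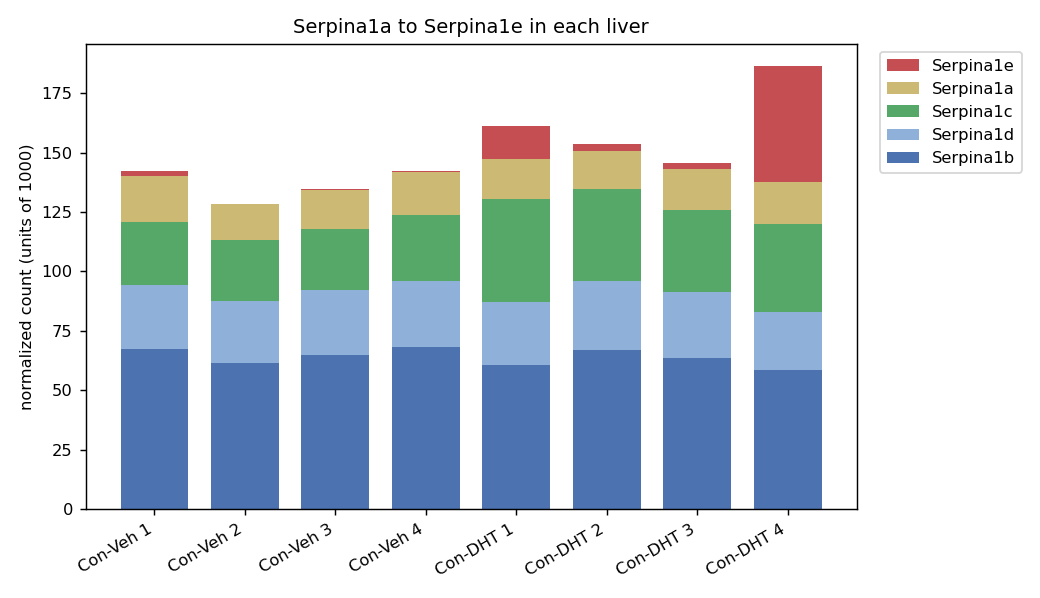
Stacked normalized counts (units of 1000, axis from 0) of the 5 Serpina1 copies in each of the 8 livers. Serpina1e, the top segment, is hardly visible in Con-Veh and reaches 26.04% of the bar in Con-DHT replicate 4, while the Serpina1b and Serpina1d segments are of like height in all livers.

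Of the 3 Serpina3 members, Serpina3m alone was called. It fell: its Con-Veh values were 5249, 5144, 3423 and 4015, and its Con-DHT values were 1734, 3022, 2533 and 1733. The groups did not overlap. The mean was 4458 ± 888 (SD, n = 4) in Con-Veh and 2255 ± 635 (SD, n = 4) in Con-DHT, a difference of -1.003 in log2 value (SE 0.20, interval -1.45 to -0.56, limma adjusted p = 0.0151). This was the 1 member called in all 8 fits that left out a library. Its values in Con-Veh replicates 1 and 2 were the highest, as for the acute phase genes. Without both, the groups still did not overlap, and the log2 fold change was -0.76 (limma adjusted p = 0.128).

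Serpina3n, a strongly induced acute phase serpin, showed the split within Con-Veh most clearly. Its values were 16835 and 17884 in Con-Veh replicates 1 and 2 and 7382 and 8958 in replicates 3 and 4. In Con-DHT they were 6030, 7036, 9215 and 5753, so that replicate 3 lay above both of the lower Con-Veh livers. The log2 fold change was -0.79 (SE 0.28, interval -1.41 to -0.16, limma adjusted p = 0.125), and the gene was not called. Leaving out Con-Veh replicate 3 gave -1.02 (limma adjusted p = 0.0486), and leaving out Con-Veh replicates 1 and 2 gave -0.24 (limma adjusted p = 0.572). DESeq2 called it (adjusted p = 0.0166), and edgeR on all libraries did not (adjusted p = 0.0969).

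Acute phase genes were high in the same 2 Con-Veh livers. Saa1, which encodes serum amyloid A, had values of 5476, 19178, 337 and 277 in Con-Veh and 520, 478, 3054 and 285 in Con-DHT. Haptoglobin (Hp), which binds free hemoglobin, was at 102455, 120069, 52889 and 52874 in Con-Veh and at 41524, 50968, 74999 and 46158 in Con-DHT. Serpina3n, Saa1 and Hp each had Con-DHT replicate 3 as the highest Con-DHT liver. Of the 30 acute phase genes, limma called 2, edgeR 5 and DESeq2 12, against 7.21%, 7.15% and 11.0% of all genes. The 2 called by limma were both lower: Lbp, which binds bacterial lipopolysaccharide, at a log2 fold change of -0.95 (limma adjusted p = 0.00561) and the copper carrier ceruloplasmin, Cp, at -0.44 (limma adjusted p = 0.032). Over the list, log2 fold changes had a median of -0.83, beside -0.0081 over all genes, with 18 of the 30 at an unadjusted p of at most 0.05, against 23.2% of all genes. The part of these transcripts in the values of Serpina3m and Serpina3n was not tested.

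Serpina3k, which lies beside Serpina3m and was once named contrapsin, was not called by limma. Its Con-Veh values were 52441, 40438, 38180 and 43420, and its Con-DHT values were 90106, 66100, 49114 and 110375. Only Con-DHT replicate 3 fell within the Con-Veh range, below Con-Veh replicate 1. The log2 fold change was 0.80 (SE 0.24, interval 0.27 to 1.33), with a limma adjusted p of 0.0761. edgeR (adjusted p = 0.0498) and DESeq2 (adjusted p = 0.00199) did call it, and so did limma without Con-DHT replicate 3, at a log2 fold change of 1.006 (adjusted p = 0.0238). Within a library, the log2 ratio of Serpina3k to the sum of Serpina3m and Serpina3n does not depend on the scaling of libraries. It was 1.25, 0.81, 1.82 and 1.74 in Con-Veh and 3.54, 2.72, 2.06 and 3.88 in Con-DHT. The groups did not overlap, with a difference of means of 1.64. The ratio was formed after the values were seen and sets the member with a higher Con-DHT mean over 2 with a lower one. Its lack of overlap is thus no independent evidence. Its 2 lowest values were in Con-Veh replicates 1 and 2, where Serpina3n was highest. Con-DHT replicate 3, at 2.06, was near Con-Veh replicate 3, at 1.82. Summed, the 3 genes were 1.42-fold higher in Con-DHT, and the groups overlapped.

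**Figure D3:**
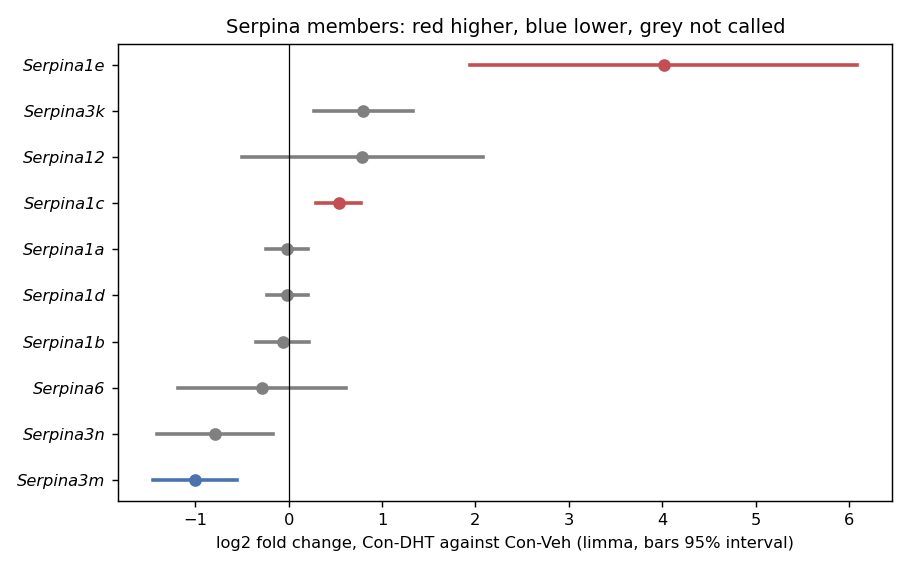
Log2 fold changes (Con-DHT against Con-Veh, horizontal axis) of the 10 genes with their 95% intervals from limma, called genes in red (higher) or blue (lower) and genes not called in grey. Serpina1e stands at 4.01 with an interval from 1.94 to 6.09, and the intervals of Serpina1a, Serpina1b and Serpina1d are narrow and include 0.

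The 2 remaining members were not called by limma. Serpina6 had values of 2184, 4092, 6385 and 3388 in Con-Veh and 3106, 4803, 4344 and 1352 in Con-DHT. The groups overlapped widely, at a log2 fold change of -0.29 (SE 0.41, interval -1.19 to 0.62, limma adjusted p = 0.729), an interval that holds changes of more than 2-fold downward. Serpina12 was low, at 87.9, 118, 141 and 139 in Con-Veh. In Con-DHT it was at 368, 257, 45.9 and 417, above every Con-Veh liver in replicates 1, 2 and 4 and below all of them in replicate 3. The log2 fold change was 0.79 (SE 0.58, interval -0.50 to 2.08, limma adjusted p = 0.462) with all libraries and 1.51 (limma adjusted p = 0.0044) without Con-DHT replicate 3. With spike-in scaling Serpina12 was called by limma (adjusted p = 0.0389) and by edgeR (adjusted p = 0.00235). In that limma fit each gene took the spread of the trend, so the adjusted p of a gene this variable cannot be read. The edgeR value needs the same care, since edgeR's adjusted p for the variable Serpina1e was 1.05e-33 with spike-ins and 0.0355 without.

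Per kilobase of exon, the levels of the members in Con-Veh ran from the most abundant transcripts of the liver to the middle of the range. Serpina1b was highest at 27097 normalized counts per kb, above 99.8% of genes. Serpina3k followed at 21206, and then Serpina1d at 19406 and Serpina1c at 19337, which did not differ beyond their spread. Serpina1a (9421), Serpina3n (6185), Serpina3m (2593) and Serpina6 (2278) came next, the last pair again within their spread. Serpina1e stood at 494 and Serpina12 at 32.9. In Con-DHT the order was different at the top: Serpina3k was at 38368 per kb, Serpina1c at 28142 and Serpina1b at 25909, and the mean of Serpina1e, at 10566, was above that of Serpina1a, at 9288. That rank rests on Con-DHT replicate 4, since Serpina1e was below Serpina1a in the other 3 Con-DHT livers. The places of Serpina1a and Serpina1c in both orders are also uncertain, since 46.9% of their windows were unique, against 90.1% for Serpina1e.

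Across the 4 Con-DHT livers, several members ranked the mice alike. Serpina1e, Serpina3k and Serpina12 all had replicate 4 highest, then 1, then 2, then 3, an order found in 5.36% of all tested genes and in 12.6% of the 658 genes called higher. Serpina3n had exactly the opposite order, which 5.39% of all genes had. The order of Serpina1c was another one, with replicate 1 highest and replicate 3 lowest. This order was noticed in the values and is given as a description. Mup7, which encodes a major urinary protein and is a classic androgen- and growth hormone-responsive liver gene, had the same order, at 15099, 5119, 1638 and 21039 in Con-DHT replicates 1 to 4, beside 14.8 to 25.96 in Con-Veh. Other genes that rose did not all share it. Cyp4a12a, Mup20, Slco1a1 and Cyp7b1 had this order, whereas Cyp2d9, Hsd3b5 and Elovl3 had replicate 1 highest and Mup1 had replicate 2 lowest.

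**Figure D4:**
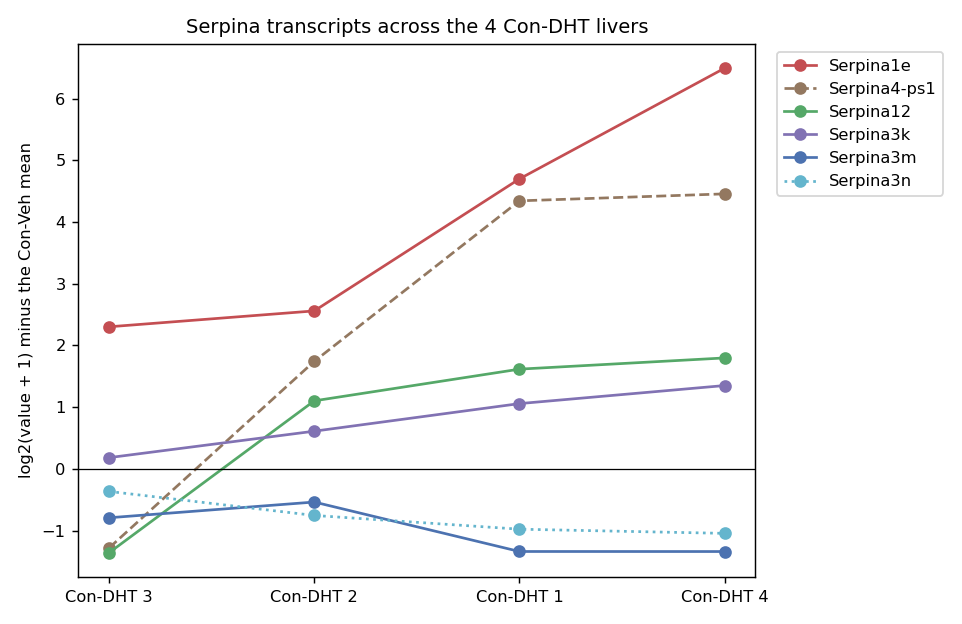
Values in the 4 Con-DHT livers as log2(value + 1) minus the Con-Veh mean, with livers placed from the lowest to the highest Serpina1e and lines joining the values of a gene. Serpina1e, Serpina4-ps1, Serpina12 and Serpina3k are lowest in replicate 3 and highest in replicate 4, and Serpina3n runs the other way.

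Among the other serpins of clade A, 7 of 16 listed genes were tested and limma called 0, where it called 7.21% of all genes. 1 of the 7 had an unadjusted limma p of at most 0.05, where 23.2% of all genes did. edgeR called 0 and DESeq2 called 1, against 7.15% and 11.0% of all genes. The 1 called by DESeq2 was Serpina4-ps1, a pseudogene of the same cluster, at 19.8, 37.6, 11.98 and 22.6 in Con-Veh and 451, 73.5, 8.16 and 488 in Con-DHT. It shared the mouse order of Serpina1e and had its lowest value of all in Con-DHT replicate 3, with a log2 fold change of 2.32 (limma adjusted p = 0.23). Serpina10, an inhibitor of activated factor X, was at 3337 and 3776 in Con-Veh replicates 1 and 2 and between 1639 and 2300 in the other 6 livers (log2 fold change -0.51, limma adjusted p = 0.169). Serpina11 had its highest values in the same 2 livers, 1506 and 1486, with the rest between 581 and 1000 (log2 fold change -0.46, limma adjusted p = 0.296). Serpina7, the thyroxine-binding globulin on the X chromosome, ranged from 301 to 1805 in Con-DHT and from 320 to 1262 in Con-Veh (log2 fold change 0.26, limma adjusted p = 0.816).

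In serpins of other clades, 15 of 27 listed genes were tested and limma called 4, where it called 7.21% of all genes. The 4 were split 2 in each direction, with a list median of -0.16. Serpine2, which encodes protease nexin-1, an inhibitor of thrombin and plasminogen activators, rose from 51.6 ± 21.5 to 124 ± 29.9 (SD, n = 4 each), a log2 fold change of 1.31 (limma adjusted p = 0.0164). Serpini1, which encodes neuroserpin, was low, and rose from 16.6 ± 4.03 to 33.9 ± 1.64 (log2 fold change 1.011, limma adjusted p = 0.0203). Serpinb8 fell from 99.0 ± 30.1 to 51.5 ± 8.43 (log2 fold change -0.90, limma adjusted p = 0.032). Serpinc1, which encodes antithrombin, the main plasma inhibitor of thrombin, fell from 33517 ± 1139 to 25687 ± 1364 (log2 fold change -0.38, limma adjusted p = 0.0414), with every Con-DHT liver below every Con-Veh liver. The abundant Agt, Serping1, Serpinf2 and Serpinf1 were not called, with log2 fold changes of -0.43, -0.50, -0.32 and -0.10. Serping1, the C1 inhibitor, was at 19021 and 20040 in Con-Veh replicates 1 and 2, and between 9252 and 12835 in the other 6 livers. Without Con-Veh replicates 1 and 2, limma called 1 of the other serpins, Serpine2.

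Proteases that clade A serpins inhibit or act beside were tested as a list of 15 genes. Limma called 3 of them, where it called 7.21% of all genes. Cela1, an elastase, rose from 70.2 ± 10.7 to 141 ± 46.0 (SD, n = 4 each), a log2 fold change of 0.94 (limma adjusted p = 0.0335). Hgfac, which activates hepatocyte growth factor, fell at a log2 fold change of -0.43 (limma adjusted p = 0.00814), and coagulation factor X, F10, at -0.39 (limma adjusted p = 0.0225). Along the secretory route of alpha-1-antitrypsin, from folding in the endoplasmic reticulum to export, 1 of 29 genes was called: Sec23a, part of the coat of export vesicles, at 0.35 (limma adjusted p = 0.021), with a list median of -0.04. Chaperone genes and the cargo receptors Lman1 and Surf4 were not called.

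Transcription factors known to act on hepatic serpin genes gave 3 calls of 21, Bcl6 and Foxa2 among them. Over all genes, limma called 7.21%. Bcl6, a repressor more active in male liver, was at 454, 840, 701 and 601 in Con-Veh and 1608, 1577, 1017 and 817 in Con-DHT, which gave a log2 fold change of 0.93 (limma adjusted p = 0.0453) with overlap between replicate 4 of Con-DHT and replicate 2 of Con-Veh. Foxa2, a liver-enriched activator, fell at a log2 fold change of -0.54 (limma adjusted p = 0.0335). In the list of hormone carriers and corticosteroid handling, 1 of 14 genes was called: Srd5a1, a steroid 5-alpha-reductase, rose from 367 ± 73.3 to 1180 ± 288 (SD, n = 4 each), a log2 fold change of 1.67 (limma adjusted p = 0.000898). Of 23 genes known to respond to androgen or growth hormone in liver, 19 were called, 10 higher and 9 lower. That list was made with results of these data known and is no independent evidence of a direction. Mup7 and Cyp4a12a, a male-biased fatty acid hydroxylase, rose by 8.43 and 7.45 on the log2 scale (limma adjusted p = 0.000173 and 0.000207). Cyp2b13, Sult3a1 and A1bg, all higher in female than in male liver, fell, with log2 fold changes of -7.07, -6.07 and -5.86 (limma adjusted p between 0.000248 and 0.0034). When each library was left out in turn, Lbp, Hgfac, Srd5a1 and these 5 genes were called in all 8 fits. Serpine2 was called in 7, Serpini1, F10 and Sec23a in 4, Cela1 in 3, Serpinb8, Bcl6 and Cp in 2, and Serpinc1 and Foxa2 in 1.

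The 10715 genes searched for likeness were compared by the root mean square difference of their log2 values, each centred on the gene's mean, over the 8 libraries. Nearest to Serpina1e were Cyp7b1, an oxysterol hydroxylase (1.28), Slco1a1, an organic anion transporter (1.29), Elovl3, a fatty acid elongase (1.29), Mup1 (1.30) and Selenbp2 (1.33). These are wide distances, since the spread of Serpina1e exceeds that of most genes. Their log2 fold changes were 2.32 for Cyp7b1, 2.88 for Slco1a1, 2.55 for Elovl3, 5.68 for Mup1 and 2.31 for Selenbp2, and limma called all but Selenbp2 (adjusted p = 0.0698). Nearest to Serpina3m, at much smaller distances of 0.20 to 0.22, were Ddit3, Gata6, Ifi27l2b, Cyp2c29 and Ppp1r3b, with log2 fold changes between -1.29 and -0.77. The distance includes the difference between the groups, so genes near a member that changed were bound to change the same way. Their fold changes and calls are a description only.

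Markers of the cell types a liver sample can hold were summed per library. Calls among them are by limma, which called 7.21% of all genes. Of the hepatocyte markers 7 of 8 were in the table and 0 were called by limma, with sums between 1051970 and 1846050 in Con-Veh and between 1063590 and 1240160 in Con-DHT. Kupffer cell and macrophage markers were lower in Con-DHT, at 4395 to 6014 against 6513 to 8043, with 4 of 8 called, and endothelial markers were at 2596 to 3029 against 3452 to 3831, with 2 of 7 called. For neutrophils, the source of the elastase that alpha-1-antitrypsin inhibits, 2 of 10 markers were in the table and 0 were called. They summed to 31.9 to 51.1 in Con-DHT and 63.9 to 117 in Con-Veh. Of these, Prtn3 was at 62.7 and 79.1 in Con-Veh replicates 1 and 2 and at 5.99 and 13.1 in replicates 3 and 4. In Con-DHT, Prtn3 was between 0.968 and 7.85. Sums of T and B cell markers (3 of 9 in the table, 1 called), stellate cell markers (8 of 8), cholangiocyte markers (5 of 6) and erythroid markers (5 of 5) overlapped between the groups, with 0 called in the last 3 lists. Of 6 markers of the neighbouring pancreas, 0 were in the table. The part of these cells in the values of the serpin genes was not tested.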

How the data were processed

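Per the labels and the study's methods, the authors trimmed reads (Trimmomatic 0.36), aligned them with STAR 2.5.2b, used featureCounts (Subread 1.5.2) to count reads that map uniquely to exons and used DESeq2. The labels name the build GRCm39. Symbols, lengths and positions here come from GENCODE M21 (GRCm38). The deposited values are a normalized signal, each gene's read count divided by a size factor per library. Division by that step gave whole reads for 100% of values (tolerance 0.001 reads).

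The main test was limma 3.58.1 (R 4.3.3, intensity trend) on log2(value + 1), which understates changes of low genes, for the 14312 genes whose mean was 10 or more, and p-values were adjusted by Benjamini-Hochberg (threshold 0.05). Alternatives were pseudocounts of 0.1 and 5, other filters and scalings, edgeR 4.0.16 and DESeq2 1.42.0 on the recovered reads, a replicate block and leaving out each library. Added after the values were seen were edgeR without Con-Veh replicate 3, edgeR with spike-in scaling, limma without Con-Veh replicates 1 and 2, and the Serpina1c share, the Serpina1a to Serpina1d sum and the Serpina3 ratio. The tests were tried on simulated data. Libraries were grouped by the treatment label. Other genes named were those called in each list (at most 6) and, among other serpins, the 4 highest per kb. Further named genes, including Saa1, Hp, Lman1 and Surf4, were chosen after their values were seen. The members and lists were chosen with earlier results of these data known, so planned exact tests of sums over members are not printed. Some results are not reported here.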

Additional observations from a re-analysis of the deposited data

Results flagged for a closer look

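In each group of 4 livers, the gap between the highest or lowest liver and its nearest neighbour was divided by the range of the group (Dixon's ratio). Of 108 groups checked, 6 passed the 95% critical value, and chance passes about 1 in 20. Serpina1e in Con-Veh gave 0.842, with replicate 1 highest at 2096, and its share of the Serpina1 sum gave 0.852 through the same liver, at 1.47%. For Serpini1 in Con-Veh the ratio was 0.918 and for Sec23a in Con-Veh it was 0.879, both with replicate 4 highest. In Con-DHT, Serpinf2 gave 0.883 with replicate 3 highest, and Serpinf1 gave 0.865 with replicate 4 lowest. Without Con-Veh replicate 1, the log2 fold change of Serpina1e was 4.67 (limma adjusted p = 0.0168).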

How the results depend on the processing

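The lowest count of a member in a library was 45 reads (Serpina12), and how much of the spread between mice is counting error was not tested. Limma called 1032 genes, DESeq2 1569, limma with a mean of at least 50 called 648, with spike-in scaling 636, without Con-Veh replicates 1 and 2 509, edgeR with spike-in scaling 636, and fits without 1 library between 638 and 897. Of the members, DESeq2 called 5, limma without Con-Veh replicates 1 and 2 called 0, and fits without 1 library called between 1 (without Con-Veh replicate 2) and 5 (without Con-DHT replicate 3). Of the other serpins 4 were called, against 7 by DESeq2, 2 by edgeR without Con-Veh replicate 3, by limma with spike-in scaling, by edgeR with spike-in scaling and under the replicate block, 1 without Con-Veh replicates 1 and 2, and 1 to 6 without 1 library. In the related lists 29 genes were called, against 53 by DESeq2 and 19 without Con-Veh replicates 1 and 2. The cause of these differences was not tested.

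The Serpina1 sum differed by 0.24 on the log2 scale, by 0.44 with spike-in scaling, where the groups overlapped, by 0.24 under the replicate block, and by 0.17 to 0.28 without 1 library. The Serpina1e share differed by 9.08 percentage points, also as same-numbered pairs under the block, and by 3.62 to 11.7 without 1 library, lowest without Con-DHT replicate 4. The median log2 fold change of all genes was -0.0081 in the main comparison, 0.19 with spike-in scaling by limma and 0.14 by edgeR, 0.09 with an equal total taken without the Mup and Serpina1 genes, and between -0.0166 and -0.0036 in the other settings. Signs turned for Serpina1a (0.184 and 0.113 with spike-ins by limma and edgeR, 0.0866 with that equal total, -0.0787 to 0.0407 without 1 library), Serpina1b (0.134, 0.0727 and 0.0366) and Serpina1d (0.183, 0.127 and 0.0862, and -0.0523 to 0.0306 without 1 library), all under the shift of all genes with spike-ins. Signs also turned for Serpina6 (0.0773 by edgeR without Con-Veh replicate 3, and -0.543 to 0.107 without 1 library), Serpina7 (-0.187 to 0.673 without 1 library) and Serpinf1 (0.0943 with spike-in scaling by limma and 0.0106 by edgeR). In the spike-in fit limma's prior degrees of freedom were infinite, so each gene took the spread of the trend. The adjusted p of genes that vary more, such as Serpina1e and Serpina12, cannot be read there. With spike-in scaling Serpina1c and Serpina3m were not called, at log2 fold changes of 0.74 and -0.80 (limma adjusted p = 0.291 and 0.124), and Serpina12 was called at 0.99 (limma adjusted p = 0.0389). At an unmoved log2 fold change, Serpina1c was not called under the block (0.54, limma adjusted p = 0.0674) and Serpina1e was not called without the trend (4.01, limma adjusted p = 0.066). By edgeR without Con-Veh replicate 3, Serpina1e was at 4.19 (adjusted p = 0.0832).

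Same-numbered libraries did not deviate together (correlations between -0.186 and -0.006, with 0 of 4 Con-Veh libraries nearest to its own number), so these values gave no sign of a pairing by number. A pairing with a small effect on expression could be missed this way.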
